A study of Mus musculus with 42 samples.

Results

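The genomic bins in question lay in a lamina-associated domain (LAD) in both livers taken at circadian time CT18 and in neither liver taken at CT12, or the reverse. The 19 mouse autosomes were divided into 24639 bins of 100 kb, and a bin was counted as in a LAD of a liver when 50 kb or more of it was covered by that liver's LADs. The members are the 276 bins in a LAD at CT18 only and the 73 bins in a LAD at CT12 only, 349 of 24639 bins in all. They are called CT18-only and CT12-only bins here, with respect to these 4 livers. LADs were mapped by chromatin immunoprecipitation and sequencing (ChIP-seq) of lamin B1 (LMNB1) in 14 livers, each from 1 mouse. The comparison rests on CT12 replicates 1 and 2 and CT18 replicates 1 and 2. The other 10 libraries come from NS, CT0, CT6, CT24 and CT30, with 2 mice each, and took no part in the choice of bins.

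All mice were wild-type C57Bl/6 kept under 12 h of light and 12 h of darkness. The labels call the mice female in 1 field and male in another, and no age is stated. Mice of the CT groups went without chow for 24 h and had free access to it again from CT0, when the lights came on. CT12 is thus the time of lights off, 12 h after refeeding, and CT18 lies 6 h into the dark. NS mice were not synchronized by fasting and were killed before the food was withdrawn. Livers were used as whole tissue pieces, so that a LAD is an average over all cell types of the liver, and a LAD in more cells or in other cells of the tissue cannot be told apart. The files hold domain positions only, and the identity of the tissue could not be checked against marker genes.

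The nuclear lamina is a meshwork of A-type and B-type lamins beneath the inner nuclear membrane. LADs are long stretches of chromatin that touch it. They are in general rich in A and T, poor in genes and low in transcription, and carry much of the heterochromatin of the nucleus. Some LADs are found in nearly all cells, whereas others differ between cell types or between single cells of a type, often at the edges of stable domains. The circadian clock runs on the transcription factors CLOCK and BMAL1, which bind E-box elements in the promoters of their target genes.

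Sequence elements of the differing bins, and of promoters of genes that start in them, are shown first. Their letters can be compared between CT18-only and CT12-only loci. Of the RefSeq microRNA genes (GRCm38.p6), 5 lay in CT18-only bins and 1 in a CT12-only bin. These bins are 1.12% and 0.296% of all autosomal bins. A share over all microRNA genes is not given, so the counts are not read as a result about microRNAs. The mature sequences of 4 of the genes in CT18-only bins and of the gene in the CT12-only bin follow. The seed (bases 2 to 8) is in capitals, with chromosome, start and end of the mature form.
mmu-miR-6341 (chr1:12426016-12426038, plus strand): cAGUGCAAugauauugucacuau
mmu-miR-1899 (chr9:8246796-8246817, plus strand): aGCGAUGGccgaaucugcuucc
mmu-miR-710 (chr8:64514401-64514422, minus strand): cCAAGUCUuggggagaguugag
mmu-miR-879-5p (chr5:9375714-9375734, plus strand): aGAGGCUUauagcucuaagcc
mmu-miR-879-3p (chr5:9375748-9375769, plus strand): gCUUAUGGcuucaagcuuucgg
mmu-miR-680 (chr6:129691541-129691561, plus strand): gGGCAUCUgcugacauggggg
The gene of miR-680 shown here, Mir680-1, lay in the CT12-only bin that also holds the Klrc genes. Levels of these microRNAs were not measured in the files used here.

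The E-box CACGTG, which reads the same on both strands, was searched in the RefSeq promoters (GRCm38.p6, 250 bases before to 50 after a start) of genes held by the differing bins. It was present in 4 of 85 promoters (4.71%) of the 73 genes with an entry in CT18-only bins, and in 3 of 30 promoters (10%) of the 24 genes with an entry in CT12-only bins. The latter 3 stand for 2 genes, since overlapping promoters of Klrc2 hold the same E-box. Among promoters of genes in CT18-only bins, those of the olfactory receptor genes Olfr142 and Olfr1272, which share a bin, both hold it 16 bases before the start. These matches may thus not be separate either. Of all autosomal promoters with the same window, 2243 of 31396 (7.14%) held the motif. Not all promoters of the held genes lie in the bins themselves. That of Pcdh15, for example, lies outside its block. Of the promoters with the motif, that of Chrna7, which encodes a nicotinic acetylcholine receptor subunit, is shown for CT18-only bins, and those of the receptor genes Klrc2 and Klrc3 for CT12-only bins. The E-box is in capitals.
Chrna7 (chr7:63212477-63212776, minus strand): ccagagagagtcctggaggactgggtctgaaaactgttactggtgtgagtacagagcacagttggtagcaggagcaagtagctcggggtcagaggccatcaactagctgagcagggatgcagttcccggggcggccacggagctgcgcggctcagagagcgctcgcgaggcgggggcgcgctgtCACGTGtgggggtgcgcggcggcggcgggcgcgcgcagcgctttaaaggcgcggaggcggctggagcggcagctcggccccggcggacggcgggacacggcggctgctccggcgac
Klrc2 (chr6:129660507-129660806, minus strand): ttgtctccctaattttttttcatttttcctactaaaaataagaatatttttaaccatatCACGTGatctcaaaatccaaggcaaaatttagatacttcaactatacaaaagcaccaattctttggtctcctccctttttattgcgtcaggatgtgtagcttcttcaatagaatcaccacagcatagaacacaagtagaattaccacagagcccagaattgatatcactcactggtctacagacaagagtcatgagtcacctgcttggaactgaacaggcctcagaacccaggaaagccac
Klrc3 (chr6:129643239-129643538, minus strand): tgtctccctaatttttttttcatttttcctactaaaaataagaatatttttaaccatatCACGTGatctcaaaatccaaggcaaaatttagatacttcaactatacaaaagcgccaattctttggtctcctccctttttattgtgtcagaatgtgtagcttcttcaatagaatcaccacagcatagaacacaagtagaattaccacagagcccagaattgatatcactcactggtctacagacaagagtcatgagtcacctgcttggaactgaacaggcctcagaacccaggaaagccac
The motif begins 66 bases before the start in Chrna7 and 191 bases before it in Klrc2 and in Klrc3. The promoters of Klrc2 and Klrc3 are identical at 289 of 300 positions, so that they count as copies of 1 sequence more than as separate matches. A match describes the letters and says nothing on binding in liver.

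To place the differing bins within the LADs of these livers, coverage was compared first. The numbers of autosomal bins in a LAD were 5506 and 5827 at CT12 and 6182 and 6525 at CT18. Both CT18 livers thus lay above both CT12 livers, with means of 6354 ± 243 bins (SD, n = 2) and 5667 ± 227 bins (SD, n = 2). The difference of 687 bins, or 70.3 Mb of autosomal sequence, had P = 0.333 (exact permutation test, two-sided, 2 livers in each group), which is the smallest value this design allows. No read count comes with the LADs, so that read depth cannot be set beside this difference.

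Most LAD sequence was common to the time points. Of the 7907 bins in a LAD in at least 1 of the 4 livers, 4365 (55.2%) were so in all 4. The 276 CT18-only bins made up 1.12% of all autosomal bins and the 73 CT12-only bins 0.296%. These counts describe the choice of bins and are not tested. For comparison, the CT12 mice differed from each other at 1387 bins and the CT18 mice at 2373 bins, while a member has to agree between the mice of each time point. Among the 916 bins in a LAD in exactly 2 livers, 349 were those of a single time point and 567 combined 1 liver of each. Replicate 2 of CT12 with replicate 2 of CT18 accounted for 260 bins, nearly as many as the 276 of the CT18 pair, whereas the remaining mixed pairs held 113, 97 and 97.

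**Figure D1:**
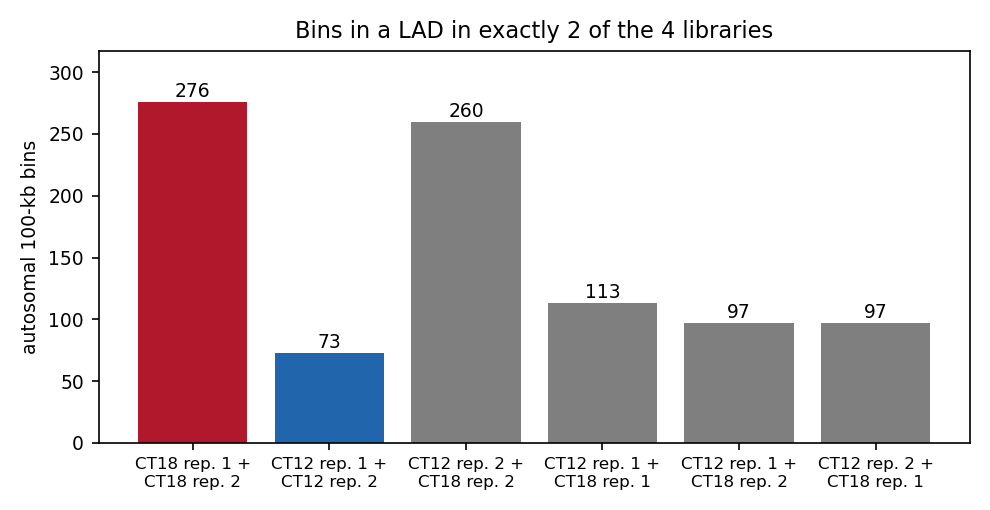
Number of autosomal 100-kb bins (vertical axis) in a LAD in exactly 2 of the 4 libraries, for each of the 6 possible pairs of libraries (horizontal axis). Red is the CT18 pair with 276 bins, blue the CT12 pair with 73 bins, and grey the pairs of 1 CT12 and 1 CT18 library, of which replicate 2 with replicate 2 has 260.

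Agreement between mice can also be read from each liver. CT18 replicate 1 had 853 LAD bins that neither CT12 liver had, of which 32.4% were found in CT18 replicate 2 too. CT18 replicate 2 had 970 such bins, of which 28.5% were found in replicate 1. In the reverse direction, 31.5% of 232 bins of CT12 replicate 1 and 35.1% of 208 bins of CT12 replicate 2 recurred in the other CT12 mouse. In each of the 4 livers, most of the bins that set it apart from the other time point were thus those of 1 mouse. The rule loosens when 1 library is left out, so that the counts of members can only rise. Without CT12 replicate 1 or 2 there were 440 or 638 CT18-only bins and 208 or 232 CT12-only bins. Without CT18 replicate 1 or 2 there were 970 or 853 CT18-only bins and 301 or 380 CT12-only bins. Of these, the 970, 853, 208 and 232 are the single-liver counts given above.

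Members were mostly clear of the threshold. Of the 276 CT18-only bins, 235 had no base covered in either CT12 liver, and 181 were also covered over their whole length in both CT18 livers. Of the 73 CT12-only bins, 60 were without a covered base at CT18, and 40 were fully covered at CT12 as well. Just inside the threshold, 6 CT18-only bins in CT18 replicate 1 and 8 in replicate 2 had 50 to 60 kb covered. Just outside it, 4 in CT12 replicate 1 and 3 in CT12 replicate 2 had 40 to 50 kb. Counted in base pairs without bins, 28.0 Mb were in LADs of both CT18 livers and neither CT12 liver, and 7.30 Mb the reverse.

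CT18-only bins formed 100 blocks of adjacent bins, and CT12-only bins 30. Blocks had a median length of 0.2 Mb in both kinds, and the longest measured 1.1 Mb (CT18-only) and 0.8 Mb (CT12-only). Single bins made up 39 of the 100 and 14 of the 30 blocks. A block next to a bin that was in a LAD in all 4 livers is an extension of a stable LAD here. This held for 37 CT18-only blocks with 116 bins and for 9 CT12-only blocks with 13 bins. The other 63 and 21 blocks had no such neighbour, and 0 blocks of either kind filled a gap between stable LAD bins. Each of the 100 CT18-only blocks had beside it a bin that was in a LAD in at least 1 of the 4 livers. Such a bin need not belong to a neighbouring LAD. It can lie in the block's own LAD where that ran further in 1 mouse, as at chr4:85000001-85800000. For 1 CT12-only block, both neighbouring bins stayed below the 50 kb in all 4 livers.

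Members were spread unevenly over chromosomes. Chromosomes 7 and 6 held the most CT18-only bins, 37 (2.54% of the chromosome's bins) and 35 (2.34%), followed by chromosome 4 with 28, chromosome 2 with 26 and chromosome 10 with 20. The fewest, 3 bins, were on chromosome 15. CT12-only bins were most frequent on chromosome 3, with 18 bins (1.12% of its bins), chromosome 10 with 12 and chromosome 1 with 10, and 0 were found on chromosomes 5, 9, 11, 14, 15 and 19. Chromosome 3 was the single autosome with more CT12-only than CT18-only bins (18 and 12). As bins come in blocks, these counts rest on few separate loci.

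**Figure D2:**
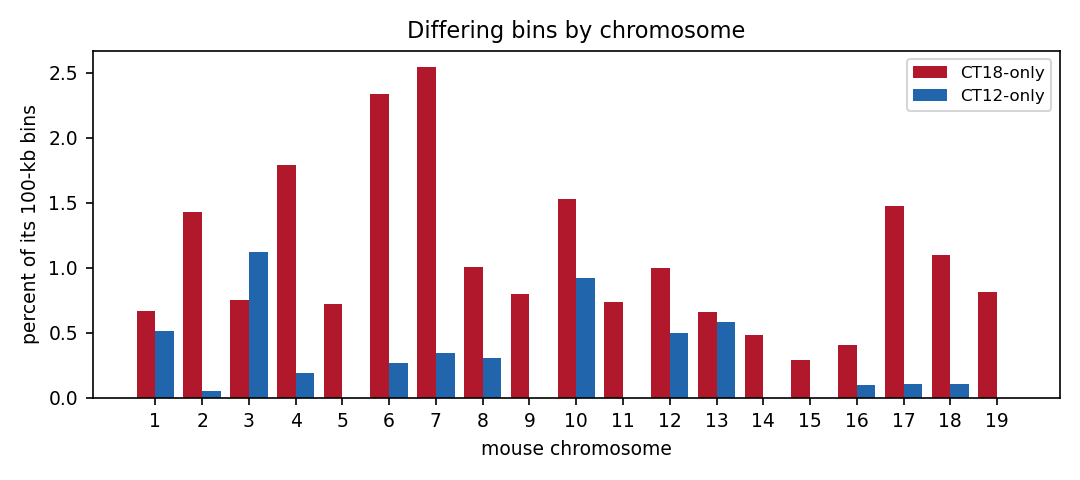
Percent of the 100-kb bins of each autosome (vertical axis) that were CT18-only (red bars) or CT12-only (blue bars), by chromosome (horizontal axis). CT18-only bins reach 2.54% on chromosome 7, and CT12-only bins reach 1.12% on chromosome 3.

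The longest CT18-only block lay at chr6:106700001-107800000 (mm10) beyond the end of a long LAD. LADs of CT12 replicates 1 and 2 ended at 106495000 and 106650000, and those of CT18 replicates 1 and 2 at 107787000 and 108048000. The block was 98.8% and 100% covered in the CT18 livers and 0% in both CT12 livers, and LAD lengths there were 4.545 and 4.94 Mb at CT12 against 6.289 and 6.444 Mb at CT18. The added stretch holds the starts of Il5ra, the interleukin-5 receptor subunit, Trnt1, which adds the CCA end to tRNAs, Crbn, a substrate receptor of a ubiquitin ligase, and Lrrn1, a leucine-rich repeat membrane protein. The same stretch recurred in other livers: its bins were in a LAD in 5 to 8 of the other 10 libraries, and the block was 100% covered in both CT30 livers, both CT6 livers and CT0 replicate 1. NS replicates 1 and 2 covered 87.7% and 90.9% of it and CT24 replicate 2 85.5%. CT0 replicate 2 and CT24 replicate 1 covered 0% of it, as CT12 did.

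The second block, chr2:57400001-58400000, was in a LAD in the CT18 livers alone. It was covered to 100% in CT18 replicate 1 and 95.6% in CT18 replicate 2, and to 0% in each of the other 12 libraries. In replicate 1 it was the end of a LAD of 5.187 Mb (chr2:53276001-58463000). In replicate 2 it was a separate LAD of 0.972 Mb (chr2:57444001-58416000), apart from a LAD that ended at 56994000. The genes that start in it are Galnt5, a glycosyltransferase of O-linked glycosylation, Ermn, a cytoskeletal protein of oligodendrocytes, Cytip, a regulator of cell adhesion in blood cells, and Acvr1c, the receptor ALK7 of the activin and nodal family.

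At chr6:64600001-65600000 the LADs of CT12 replicates 1 and 2 ended at 64575000 and 64560000, close to the edge of the block. Neither CT12 liver covered any of the block (0%). CT18 replicate 2 continued to 65562000 (96.2% of the block), and CT18 replicate 1 held a LAD of 10.621 Mb that ran on to 70528000. NS replicate 1, CT24 replicate 1 and CT30 replicate 1 also covered 100% of this block, while NS replicate 2, CT6 and CT30 replicate 2 covered 0%. The block holds Atoh1, a transcription factor of neural and sensory cells, Smarcad1, a chromatin remodeller, Hpgds, the haematopoietic prostaglandin D synthase, C130060K24Rik and Tnip3, a regulator of inflammatory signalling.

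On chromosome 7, CT18-only blocks lay on either side of a LAD. The LAD of CT12 spanned chr7:41640001-42435000 in replicate 1 and chr7:41640001-42380000 in replicate 2, 0.795 and 0.74 Mb in length. In the CT18 livers it spanned chr7:40926001-43282000 and chr7:40902001-43272000, 2.356 and 2.37 Mb. It was thus longer on both sides in both CT18 mice. Not every liver had this LAD: none was found there in NS replicate 1, CT0 replicate 1, CT6 replicate 1 and both CT30 livers. CT24 replicate 1 had a LAD of 2.968 Mb there, whereas that of CT24 replicate 2 measured 0.702 Mb. LADs of CT0 replicate 2 and CT6 replicate 2 measured 0.744 and 0.726 Mb, and NS replicate 2 had a LAD of 0.7 Mb and another of 0.344 Mb (chr7:42864001-43208000) within the block on the right, 38.2% of which it covered. The block on the right, chr7:42400001-43300000, is the fourth longest and holds 12 genes, among them the zinc finger genes Zfp141, Zfp977, Zfp976, Zfp975 and Zfp936 and the vomeronasal receptor genes Vmn2r62 and Vmn2r63. The rest are 4933421I07Rik, Gm21028, Gm17067, Gm2381 and Gm9268. The block on the left, chr7:40900001-41600000, ranked seventh and was picked for description after its values were seen.

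The fifth block, chr4:85000001-85800000, was again found at CT18 only. CT18 replicate 1 had a LAD at chr4:84892001-86032000 (1.14 Mb) and replicate 2 at chr4:85032001-85758000 (0.726 Mb), which covered 100% and 90.8% of the block. Each of the other 12 libraries covered 0%, and the nearest bin in a LAD in all 4 livers was 3.9 Mb away. Sh3gl2, which encodes the endocytic protein endophilin A1, and Adamtsl1, which encodes a secreted matrix protein, start in it. In all, 7 CT18-only blocks with 26 bins had less than 50 kb of each bin covered in all other 10 libraries, and 4 of them, with 23 bins, had no base covered there.

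**Figure D3:**
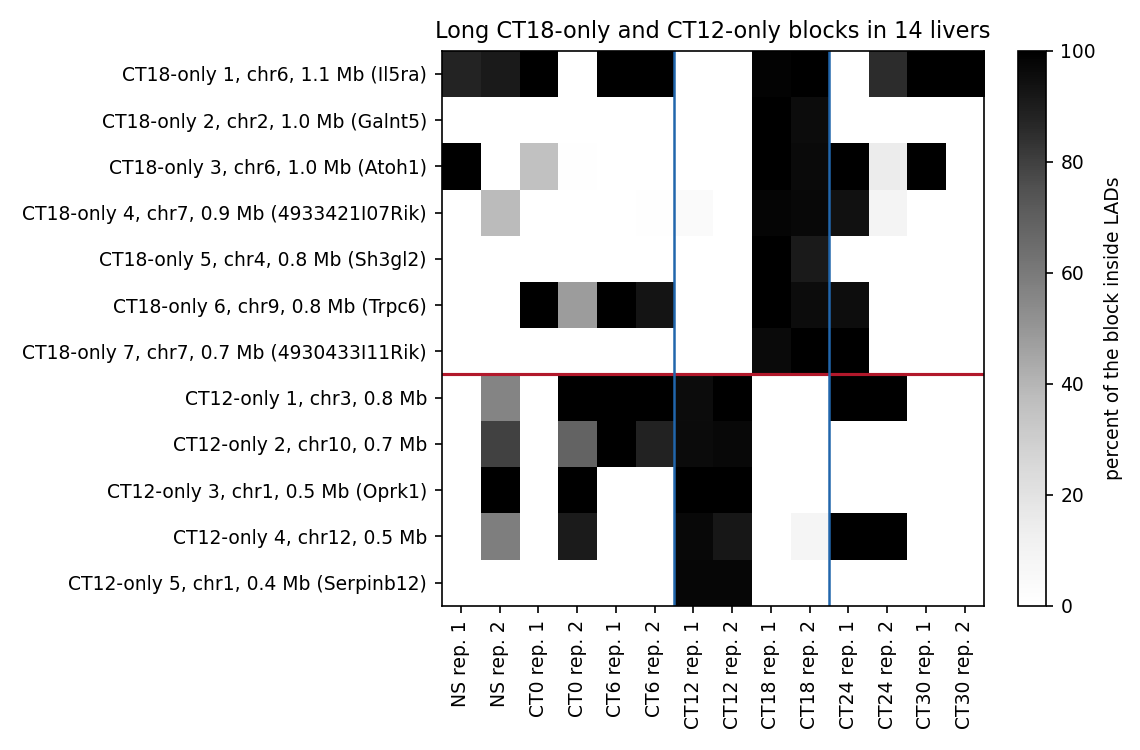
Percent of each long block inside LADs (grey scale, white 0% to black 100%) for the 7 longest CT18-only blocks (above the red line) and the 5 longest CT12-only blocks (below it), in 14 libraries ordered by time. Blue lines enclose the 4 libraries that chose the blocks. Blocks CT18-only 2 (chromosome 2), CT18-only 5 (chromosome 4) and CT12-only 5 (chromosome 1) are white in all 10 other libraries, whereas CT18-only 1 is dark in 8 of them.

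Among the longest CT12-only blocks, 3 of 5 held the start of no protein-coding gene. The longest, chr3:76500001-77300000, was 95.6% and 100% covered in the CT12 livers. In CT18 replicate 2 a LAD of 0.444 Mb ended at 76500000, where the block begins, and CT18 replicate 1 covered 0% of it. The block was 100% covered in CT0 replicate 2 and in both mice of CT6 and of CT24, and 0% covered in both mice of CT30, in NS replicate 1 and in CT0 replicate 1. NS replicate 2 covered 56%. In the next block, chr10:97800001-98500000, the CT12 livers had LADs of 0.71 and 0.73 Mb (95.7% and 97.1% of the block). Both CT6 livers also covered it (100% and 88%), as did NS replicate 2 (79.4%) and CT0 replicate 2 (68%), but CT24 and CT30 did not (0% in all 4).

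The block at chr1:5500001-6000000 holds Oprk1, the kappa opioid receptor, and Npbwr1, a neuropeptide receptor. It lay wholly in LADs of both CT12 livers and of replicate 2 of NS and CT0, and in none of the other 10 livers. At chr12:42100001-42600000, without a gene, CT12 covered 97% and 92% and CT18 0% and 8.4%. There the LADs of CT18 were shorter at their left end, starting at 42826001 and 42558001 in place of 42115001 and 42140001. Both CT24 livers covered 100% of the block, CT0 replicate 2 90.4% and NS replicate 2 58.4%, while CT6 and CT30 covered 0%.

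The fifth CT12-only block, chr1:106900001-107300000, held a cluster of serpin genes. Its LADs were 0.425 Mb long in CT12 replicate 1 (chr1:106910001-107335000) and 0.43 Mb in replicate 2 (chr1:106910001-107340000), with the same start in both mice. The block was covered to 97.5% in each CT12 liver and to 0% in the other 12 libraries. It was the CT12-only block whose neighbouring bins were both below the 50 kb in all 4 livers, as its LADs ended within the bin to the right. Serpinb12, Serpinb13, Serpinb3a, Serpinb3d, Serpinb3b and Serpinb3c, which start in it, encode protease inhibitors of the intracellular serpin clade, known mainly from epithelia.

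CT18-only bins held the starts of 100 protein-coding genes and CT12-only bins of 34, of 20807 autosomal genes (0.481% and 0.163%). No gene starts in 206 of the 276 (74.6%) and 57 of the 73 bins (78.1%). Members of gene families were counted next, and as families lie in clusters, several members often come from 1 bin. Of 1128 olfactory receptor genes, 8 started in CT18-only bins (0.709%) and 11 in CT12-only bins (0.975%), whereas 583 (51.7%) were in bins in a LAD in all 4 livers. They came from 4 blocks: Olfr1506, Olfr142, Olfr1271 and Olfr1272 on chromosome 2 and Olfr689 to Olfr692 on chromosome 7 for CT18, and Olfr823 to Olfr827 on chromosome 10 and Olfr558, Olfr33, Olfr559, Olfr560, Olfr78 and Olfr561 on chromosome 7 for CT12. Vomeronasal receptor genes, which detect pheromones, gave 4 (Vmn2r57, Vmn2r62, Vmn2r63 and Vmn2r118) and 3 (Vmn1r179, Vmn1r180 and Vmn1r181) of 327.

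Zinc finger genes gave 6 of 458 (1.31%) at CT18, Zfp369 on chromosome 13 in addition to the 5 on chromosome 7, and 0 at CT12. Defensin genes gave 3 of 66 (4.55%) at CT18 (Defb33, Defa24 and Defb1), and 21 of the 66 were in bins in a LAD in all 4 livers. Over all genes the shares were 0.481% in CT18-only and 0.163% in CT12-only bins, so that a count of 0 at CT12 is near the background.

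Of 60 serpin genes, 6 were in CT12-only bins, all from the block on chromosome 1, and 0 in CT18-only bins. Lectin receptor genes gave 4 of 56 at CT12, Klrk1, Klrc3, Klrc2 and Klrc1, receptors of natural killer cells that share the single bin chr6:129600001-129700000. That bin was in a LAD in 5 of the other 10 libraries. Other lists gave 1 gene each at CT18: Sult1c1, a sulfotransferase, of 65 conjugating enzymes, Pcdh15, a cadherin of sensory hair cells, of 90 cadherins, and Lrrtm3 of 60 synaptic adhesion genes. Of 100 cytochrome P450 genes, 24 plasma protein genes and 22 major urinary protein genes, 0 were in either kind, but with 0.481% and 0.163% of all genes in the differing bins, a count of 0 is near the background for lists of this size. Solute carriers, the longest of these lists with 372 genes, had 0 too. Taste receptors (38 genes), keratins (113) and potassium channels (92) had 0 as well.

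Clock genes were not in the differing bins (0 of 23), nor were genes of the lamina and nuclear envelope (0 of 13). With 0.481% of all genes in CT18-only and 0.163% in CT12-only bins, counts of 0 are near the background for lists of this size. The clock gene closest to a CT18-only bin was Bhlhe40, a repressor within the clock, whose start was 0.861 Mb from the longest CT18-only block and in a LAD in 0 of 14 libraries. Next came Cry2 at 2.13 Mb, Dbp at 2.41 Mb and Clock at 4.30 Mb. To a CT12-only bin the closest were Bhlhe41 at 6.37 Mb and Dbp at 6.39 Mb. Rorb was the exception among clock genes in its place, being in a LAD in 12 of 14 libraries, but it was 14.8 Mb from a CT18-only bin. Lmnb1 itself lay 7.11 Mb from a CT18-only bin and in a LAD in 0 of 14 libraries. Of the genes listed by the study as periodic in liver RNA, 1 of 194 with a 12 h period (Trnt1) and 0 of 240 with a 24 h period were in differing bins. The share of all genes in CT18-only bins was 0.481%, against 0.515% for the 12 h list. The count of 0 for the 24 h list is near the background too.

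In GC content and gene density the members stood between bins in a LAD in all 4 livers, called stable LAD bins here, and bins in none. This place is not particular to the members. Bins in a LAD in 1 to 3 of the 4 livers by any other pattern had 39.5% GC, 4.72 genes per Mb and 39.4% repeat-masked sequence. GC content was 40.0% in CT18-only bins and 37.9% in CT12-only bins, beside 37.5% in bins in a LAD in all 4 livers and 43.7% in bins in none. All 100 CT18-only blocks had a GC content above the 37.5% of stable LAD bins (37.8 to 43.5%, median 39.8%), as did 21 of the 30 CT12-only blocks (35.6 to 42.2%, median 38.4%). Repeat-masked sequence took 37.9% of CT18-only, 41.6% of CT12-only, 42.7% of stable LAD bins and 29.7% of bins in none. Gene density was 3.62 genes per Mb in CT18-only and 4.66 in CT12-only bins, against 3.03 in stable LAD bins and 10.7 in bins in none. The difference of -1.03 genes per Mb has no test, as bins of a block are not independent. With LADs of 1 Mb or more alone, the densities were 2.36 and 12.2 genes per Mb, and so outside the range from 3.03 to 10.7.

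Composition also varied between mice of a time point. Bins in a LAD in 1 of the 4 livers alone had a GC content of 39.8% (CT18 replicate 1), 40.9% (CT18 replicate 2), 38.0% (CT12 replicate 1) and 40.5% (CT12 replicate 2). The 40.0% of CT18-only bins lay between those of the single CT18 mice, and the 37.9% of CT12-only bins was close to that of CT12 replicate 1. Over all their LAD bins, the livers had GC contents of 37.6 and 37.9% at CT12 and 38.0 and 38.3% at CT18. The part of library GC content in the difference between the kinds was not tested.

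**Figure D4:**
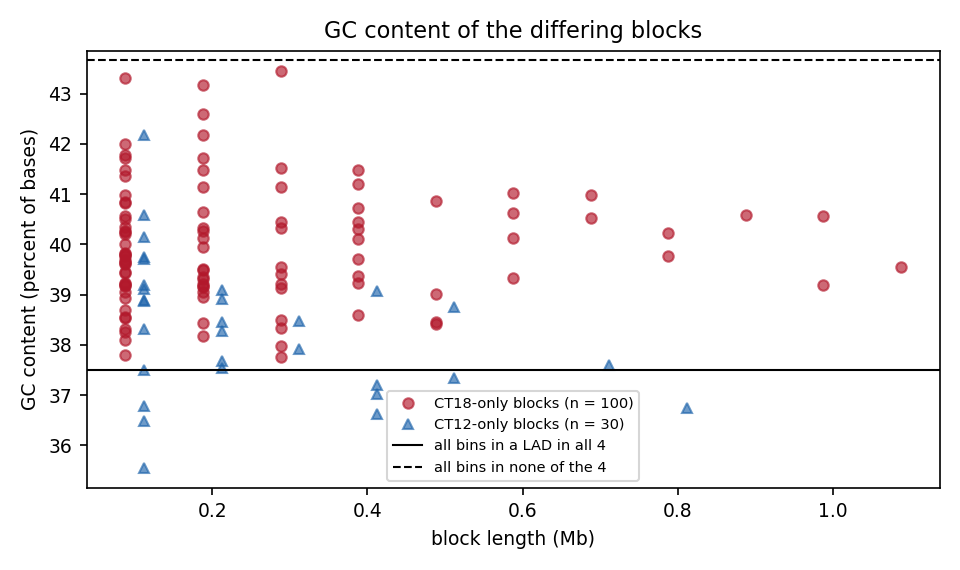
GC content (vertical axis, percent of bases) against length (horizontal axis, Mb) of each CT18-only block (red circles) and CT12-only block (blue triangles). The solid line is the 37.5% of bins in a LAD in all 4 livers and the dashed line the 43.7% of bins in none, and all red circles lie above the solid line.

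Whether the differing bins were LADs at other times was examined in the 10 libraries that had not been used to choose them. A CT18-only bin was in a LAD in a median of 3 of the 10 libraries, and a CT12-only bin likewise in 3, whereas a stable LAD bin was so in 9. Of the CT18-only bins, 38 (13.8%) were in none of the 10 and 82 (29.7%) in 5 or more. Of the CT12-only bins, 4 (5.48%) were in none and 22 (30.1%) in 5 or more. A mean of 32.2 ± 13.97% of CT18-only bins (SD, n = 10) and of 35.8 ± 20.6% of CT12-only bins was in a LAD of a library. The share was 82.1% in stable LAD bins and 1.01% in bins in none of the 4 livers. Bins in a LAD in 1 to 3 of the 4 livers by any other pattern had 30.9%, close to both kinds.

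The sign of the difference between the kinds varied from library to library. The percent of CT18-only bins minus that of CT12-only bins averaged -3.51 points (SD 24.2, n = 10), and was above 0 in 5 libraries and below 0 in 5 (P = 0.662, exact two-sided sign-flip permutation test, with 0.00195 as the smallest possible). With 1 library left out of the choice of bins, the mean difference was 13.1 points without CT12 replicate 1 and 21.5 points without CT12 replicate 2. It was -19.9 points without CT18 replicate 1 and -31.3 points without CT18 replicate 2. The rule is then uneven: bins of the time point left with 1 mouse need a LAD in that mouse alone, those of the other in both mice. The sign followed the time point that lost a library, so these values cannot show what a single liver contributed. P covers the spread between libraries only, as the same bins are counted in each. Single libraries differed widely. CT24 replicate 1, the next time point after CT18, held 66.7% of CT18-only and 45.2% of CT12-only bins, but CT24 replicate 2 held 27.9% and 46.6%. These 2 CT24 libraries had 6318 and 5182 autosomal LAD bins in all. CT6 replicates held 27.5 and 40.9% of CT18-only bins against 34.2 and 54.8% of CT12-only bins. At CT0 replicate 1 held 34.4% and 17.8%, whereas replicate 2 held 22.8% and 72.6%. NS replicates likewise went opposite ways, with 30.8% and 13.7% in replicate 1 and 15.6% and 45.2% in replicate 2. At CT30 both replicates held more of the CT18-only bins, 32.6 and 23.2% against 16.4 and 10.96%.

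**Figure D5:**
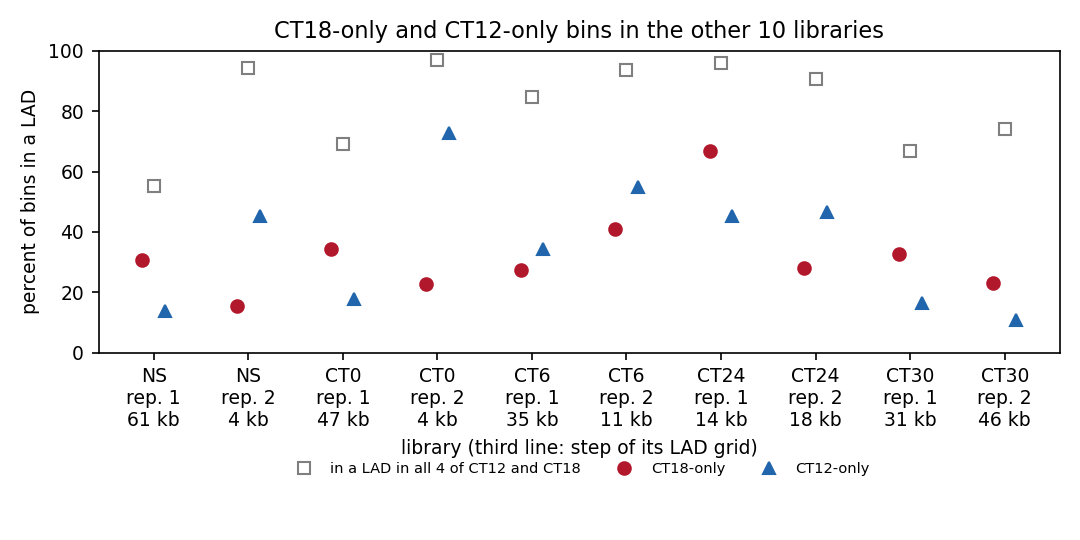
Percent of bins in a LAD (vertical axis) in each of the 10 libraries that did not choose the bins (horizontal axis, with the grid step of the LADs in kb under each name), for CT18-only bins (red circles), CT12-only bins (blue triangles) and bins in a LAD in all 4 CT12 and CT18 libraries (open squares). The squares lie highest in every library, and red lies above blue in 5 of 10.

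Sign and replicate number, taken from the library titles, moved together in part. The mean difference was 12.9 points over the 5 libraries of replicate 1 and -19.9 points over those of replicate 2. LAD starts of a library fall on a regular grid, and the libraries differ as well in its step, taken here as the bin size of the LAD caller. Libraries with a difference above 0 had steps of 61, 47, 14, 31 and 46 kb, and those with a difference below 0 had steps of 4, 4, 35, 11 and 18 kb. The 4 libraries that chose the bins had steps of 5 and 10 kb at CT12 and 19 and 6 kb at CT18. The part of these steps in the result was not tested.

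Presence in both mice of another time point was less frequent. CT24 had 21.4% of CT18-only bins in LADs of both its mice, CT6 19.9%, CT30 17.4%, CT0 11.2% and NS 7.61%. For CT12-only bins the shares were 38.4% at CT24, 32.9% at CT6, 12.3% at CT0, 9.59% at CT30 and 4.11% in NS. Thus CT24 and CT6 held the most of either kind in both mice. They did so in stable LAD bins too, of which 88.4% were in LADs of both mice at CT24, 81.7% at CT6, 68.1% at CT0, 60.1% at CT30 and 53.7% in NS.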

How the data were processed

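LMNB1 ChIP-seq LADs of 14 livers were used, 2 at each of NS and 6 CTs, grouped and numbered by the titles of the libraries. The deposited LAD lists of some libraries bear a replicate number other than that of the title, so the numbers are uncertain. The deposited files list LAD start and end on mm10, with no score or count. For these, the authors mapped reads (Bowtie2 2.25.0 in the submitters' processing notes), removed duplicates with Picard and brought each ChIP and an input to equal depth per chromosome. The domain caller EDD was run on each ChIP library, with GapPenalty and BinSize averaged over repeated runs. A single input is listed for each time point. If both mice of a time point were called against it, their agreement is not independent of that input. Read depth is unknown, and precision is limited by 2 mice per time point. It is stated for the study, not for each library, that livers came from separate mice.

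LADs were laid over 100-kb bins with Python 3.11.15, NumPy 2.4.6 and SciPy 1.17.1 (figures with matplotlib 3.10.9), and the steps were checked on simulated LADs. Genes were the 20807 autosomal protein-coding genes of GENCODE vM21, placed by transcription start site. Described in full are the 5 longest blocks of each kind (ties by position) with up to 12 genes each, and members of 19 gene lists, 2 more lists being the study's 12 h and 24 h periodic genes. Results for 1 gene group are not reported here. Other blocks and genes were picked after their values were seen. The bins and lists were chosen with earlier results of these data known. Tests were exact permutation tests with 1 value per library. Alternatives changed the threshold, size and position of bins, the minimum LAD length, the chromosomes and the libraries. Inputs and RNA-seq were not used here.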

Additional observations from a re-analysis of the deposited data

Results flagged for a closer look

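The percent of CT18-only bins in a LAD minus that of CT12-only bins in a LAD had opposite signs at CT6 and CT30. It was -6.71 and -13.9 points in the 2 CT6 livers and 16.2 and 12.2 points in the 2 CT30 livers, so that every liver of CT6 went one way and every liver of CT30 the other. Every pair of time points other than CT12 and CT18 was searched for such a pattern, and only this pair met it. The sign of the mean difference also changed with the livers that chose the bins. The livers also differed in LAD coverage, with 4961 and 5744 autosomal LAD bins at CT6 and 3955 and 3879 at CT30. The difference between CT6 and CT30 was not tested, nor was the part of LAD coverage in it. The same bins are counted in all 4 livers.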

How the results depend on the processing

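The number of CT18-only bins was 235 to 326 and that of CT12-only bins 54 to 81 over the 8 other settings of threshold, bin size, bin position, LAD length, chromosomes and strictness (in units of 100 kb), each within 1.5 times the value reported. Leaving out 1 library loosens the rule, and gave 440 to 970 CT18-only and 208 to 380 CT12-only bins. With the replicate block (LAD at CT18 and not at CT12 within each replicate number) the counts were 276 and 73, as the rule is then the same, and the coverage difference was 676 bins within replicate 1 and 698 within replicate 2 (mean 687, exact P = 0.5, the smallest with 2 pairs). Same-numbered livers deviated together with a correlation of 0.101 over bins with a LAD, and share only a number. The coverage difference kept its sign in all 8 alternatives (515.5 to 858.5 bins when 1 library was left out).

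The percent of CT18-only minus that of CT12-only bins in the other libraries stayed between -2.82 and -0.267 points with other thresholds and bin sizes or without NS, but not when 1 library was left out of the choice of bins, where it went from -31.3 to 21.5 points. It was above 0 without CT12 replicate 1 (13.1 points) and without CT12 replicate 2 (21.5 points). It was below 0 without CT18 replicate 1 (-19.9 points) and without CT18 replicate 2 (-31.3 points). Leaving out 1 library makes the rule uneven between the kinds. Bins of the time point with 1 library left are those of a single mouse there. Bins of the other time point still need a LAD in both mice, but absence from 1 mouse only. The sign followed the time point that lost a library, so these values cannot show what a single liver contributed. The same bins are counted in each library. With LADs of 1 Mb or more, the difference in gene density was -9.86 genes per Mb (77 genes in 326 CT18-only bins and 66 genes in 54 CT12-only bins), against -1.24 genes per Mb by gene bodies.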
